A study of Homo sapiens and Mus musculus with 9 samples.

Results

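The ferritin chain genes FTL and FTH1, the metallothionein genes MT1X and MT2A and the glutathione transferase gene GSTP1 were followed through 3 human peak lists of an enhanced UV crosslinking and immunoprecipitation (eCLIP) study of the pregnane X receptor (PXR). A peak was counted for a gene when its summit, the point of highest read depth, lay in the gene's span on hg38. Of the 3706 peaks in the 3 lists, 15 met this rule. LS174T, a human colorectal adenocarcinoma line, gave 2 of the lists, and the other is labelled HepG2, a human hepatocellular carcinoma line. No drug or other treatment is labelled for any of these cells.

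The libraries behind the lists, per the labels, were an input and a PXR immunoprecipitate (IP) of wild-type LS174T cells, a PXR IP of PXR knockout LS174T cells, and an input and 2 IPs of HepG2 cells made with an antibody to the HA tag. The labels used here do not say how the knockout line was made or whether it is a single clone. The sample record assigns one LS174T list to the wild-type input and the other to the wild-type IP, whereas the lists themselves are named for the wild type and for the knockout (KO), both as IPs. Which library each LS174T list describes is therefore not settled, so the first is called WT-named and the second KO-named, and no difference between them is read as one of genotype or of IP against input. Each list stands alone with no values per library, so no difference below could be set against a spread between replicates. The intervals given cover counting error alone, and reads can include PCR copies.

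Ferritin is a hollow shell built from light chains (FTL) and heavy chains (FTH1) in which cells store iron. Its mRNAs carry an iron-responsive element, a hairpin near the start of the RNA to which the iron regulatory proteins ACO1 and IREB2 bind when iron is scarce, and this holds back translation. Metallothioneins are small cysteine-rich proteins that bind zinc and copper and are transcribed in response to these metals, and GSTP1 joins glutathione to reactive compounds. PXR is a nuclear receptor known mainly for switching on genes of drug metabolism by binding DNA. In eCLIP, by contrast, the reads come from RNA that was crosslinked to protein by UV light.

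All 5 genes had a peak in the WT-named list, FTH1 and MT2A had one in the HepG2 list, and FTL alone had one in the KO-named list. The number of peaks was 11, 3 and 1 in that order. Among 38336 nuclear protein-coding and lncRNA genes, the share with a peak was 4.24% in the WT-named list, 3.34% in HepG2 and 0.073% in the KO-named list. For coding genes no longer than FTH1, the longest of the 5 at 3350 bp, the shares were 5.71%, 4.67% and 0.227%. The 5 genes were picked with earlier results of these lists known, so their higher share is a description. The reads at a site depend on how much of its RNA was present as well as on crosslinking, and the lists give no RNA levels, so these cannot be told apart, just as fewer expressing cells cannot be told apart from less RNA per cell.

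The lists differed in size and depth. The WT-named list held 2103 peaks, HepG2 1557 and the KO-named list 46, and the median number of reads at a summit was 11, 9 and 19. In the WT-named list 6 of 10 colon epithelium markers had a peak, LGALS4, MUC2 and TFF3 among them, while CDX2, VIL1, CDH17 and KRT20 had none. In HepG2 none of 8 hepatocyte markers, ALB, APOA1 and AFP included, had a peak, and 2 colon markers, CDH17 and EPCAM, had one. Among all nuclear coding genes 7.23% had a WT-named peak and 5.45% a HepG2 peak, so none of 8 is near the HepG2 share. The list labelled HepG2 did hold peaks in genes known from luminal breast epithelium, picked here after their values were seen: GATA3 (3 peaks of up to 47 reads), MLPH (4 peaks of up to 34 reads), TFF1 (up to 38 reads), GREB1 (up to 22 reads) and the oestrogen receptor gene ESR1 (9 reads). Of these TFF1 alone also had a peak in the WT-named list, where it was deeper (up to 51 reads). The hepatocyte markers thus do not bear out the label, and at a share near that of all coding genes they do not count against it. The luminal genes, few and picked after their values were seen, cannot settle another. HepG2 below is the name of a list whose cell type is not taken as settled. The KO-named list, where 0.11% of nuclear coding genes had a peak, had none in any marker gene. None of the 3 lists had a peak in the 5 blood cell markers, which is near these shares.

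All 15 peaks of the 5 genes lay on the strand from which the gene is transcribed. Their widths ran from 200 to 363 bp. They held between 11 and 146 reads at the summit, so that each stood on at least 10 reads, a number that 42.0% of all WT-named peaks and 50.3% of all HepG2 peaks did not reach. In the WT-named list the median over the 11 peaks was 33 reads, against 11 over the 1825 peaks in nuclear coding genes (quartiles 7 and 19). In HepG2 it was 12 against 10.

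**Figure D1:**
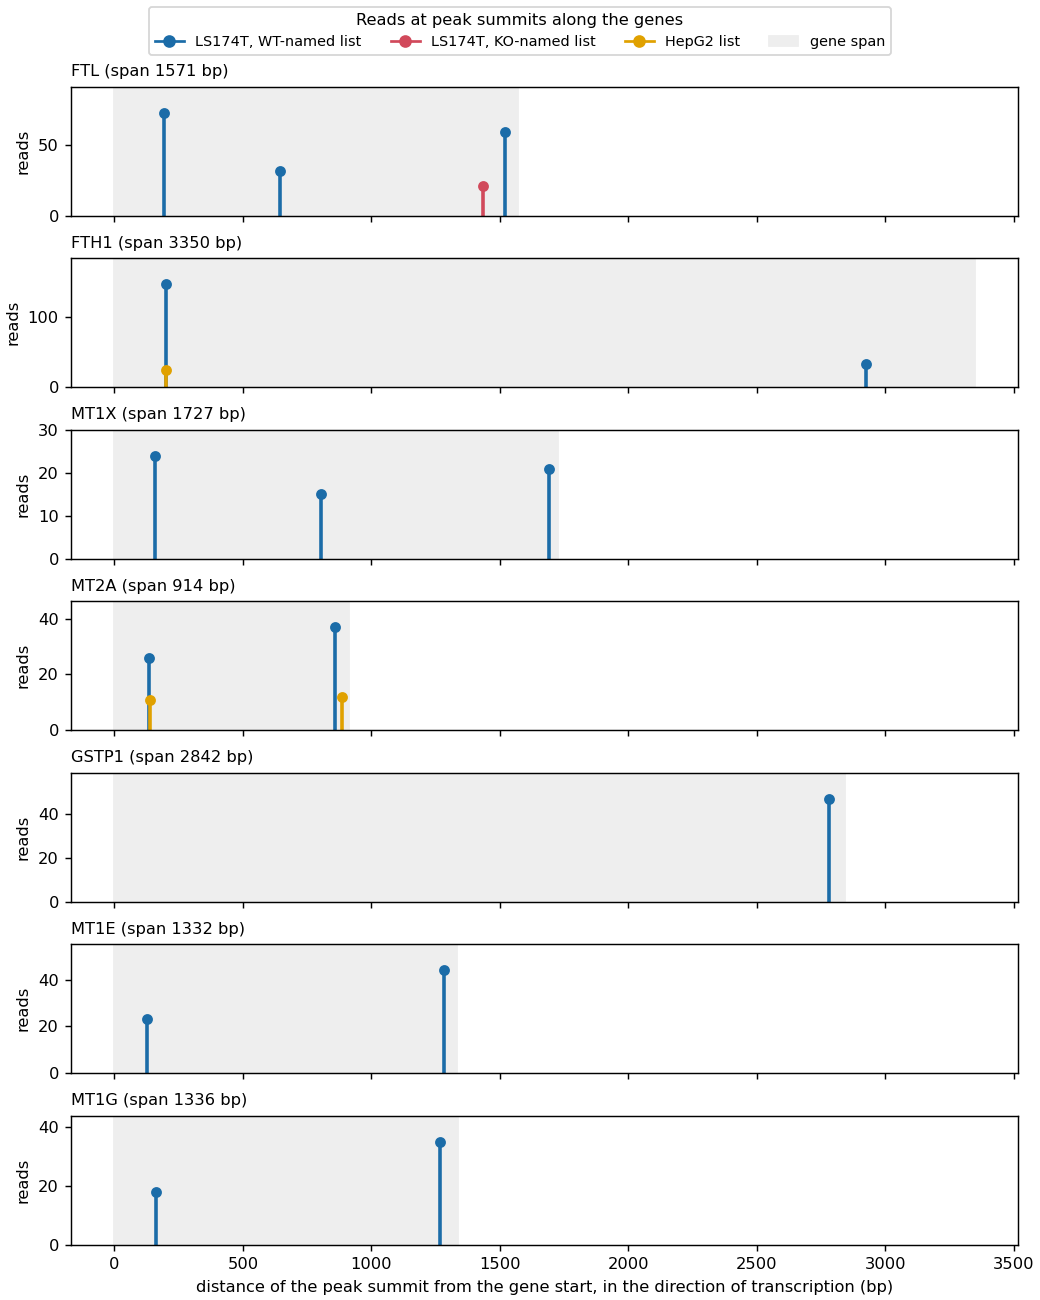
Reads at each peak summit (vertical axis, one scale per gene) against the distance of the summit from the gene start in the direction of transcription (horizontal axis, bp), for the 5 genes and the further metallothionein genes MT1E and MT1G. Each stem is a peak of the list given by its colour and grey marks the gene span. In FTL, MT1X, MT2A, MT1E and MT1G the stems stand near both ends of the gene, and in GSTP1 near its 3′ end.

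FTL spans chr19:48965309-48966879 on the plus strand. In the WT-named list it carried 3 peaks, and the one nearest the gene start held 73 reads (exact Poisson 95% interval 57.2 to 91.8) with its summit 194 bp into the gene. A middle peak held 32 reads at 643 bp, and a peak at the 3′ end held 59 reads, 52 bp before the end of the gene. The first and the last peak ranked 48th and 66th by reads among the 1825 coding peaks of the list. Together the 3 summits accounted for 164 reads, 85.0% of the 193 reads in the surrounding 10000 bp.

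The peak at the start of FTL ran from position 48965320 to 48965632 and so covered the place of the iron-responsive element. To show that place, bases 21 to 50 of the RNA are given for the 4 of 5 genes found in the promoter table (RefSeq, GRCh38.p14), 5′ to 3′, with capitals for the letters CAGTGN, the loop of such a hairpin. FTH1 is not among them.
FTL: gtctgtctcttgcttcaaCAGTGTttggac
GSTP1: gtcttcgccacCAGTGAgtacgcgcggccc
MT1X: cgctgcgtgttttcctcttgatcgggaact
MT2A: cagcgaacccgcgtgcaacctgtcccgact

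In FTL the capitals lie at chr19:48965347-48965352, and the summit of the first peak stood 156 bp downstream of the first of them. All 30 bases shown fell inside the deposited peak. Of the bases shown for MT1X and MT2A, which lack the letters, 16 and 15 fell inside the first WT-named peak of the gene. A first peak that reaches these bases is thus not particular to FTL. Loop letters alone are common: on the sense strand they occurred in the first 50 bases of 2235 of 35116 RefSeq gene starts (6.36%), and on either strand in 12.0%. When a C was also asked for before an arm of 5 bases (CNNNNNCAGTGN) the share was 1.67%. When in addition these 5 bases had to pair with the 5 bases after the loop, G with T allowed, 8 starts remained (0.0228%). FTL was one of them, and another was ALAS2, which makes the first enzyme of haem synthesis in red cell precursors and is known for such an element. GSTP1 has the letters without the paired arms and had no peak at its start. A match describes the letters and not binding, and the caller's extension of reads to 200 bp means that a peak edge is not a crosslink position.

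In the KO-named list FTL had a single peak, at the 3′ end, with 21 reads (interval 13.0 to 32.1) and its summit 136 bp before the end of the gene. It overlapped the 3′ peak of the WT-named list over 203 bp, its whole width, with summits 84 bp apart. All 23 KO-named peaks in coding genes overlapped a WT-named peak, so having such a partner is not particular to FTL. The WT-named list had 59 reads at this site and the KO-named list 21, a ratio of 2.81 (exact binomial interval 1.68 to 4.87). Over all 23 shared peaks in coding genes the median of this ratio was 3.58 (quartiles 1.92 and 9.58), and 14 of them lay above FTL. FTL lay between the quartiles of the coding genes shared by these lists. As a share of the local reads, the site held 44.7% of 47 in the KO-named list (interval 30.2 to 59.9%) and 31.2% of 189 in the WT-named list (interval 24.7 to 38.3%), which overlap.

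The start of FTL, the deeper of the end sites in the WT-named list, had no KO-named peak. At the WT-named ratio of start to end, 1.24 (interval 0.866 to 1.77), the 21 reads at the 3′ end would go with 26.0 reads at the start (18.2 to 37.3 over that interval). That range leaves out the counting error of the 21 KO-named reads themselves. Against the local background of that list, 10 reads would have reached the lowest −log10 p it contains, 7.59. The 10000 bp around held 26 further reads away from the 3′ summit, and where they lay is not recorded. The lack of a KO-named peak at the start is therefore not read as a difference. HepG2 had no peak anywhere in FTL.

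FTH1 spans chr11:61964285-61967634 and is transcribed from the minus strand. Its first peak, with the summit 202 bp into the gene, was the deepest of the 15, with 146 reads in the WT-named list (interval 123 to 172) and rank 17 of 1825 coding peaks. A weaker peak of 33 reads stood 424 bp before the 3′ end. In HepG2 the start of FTH1 held 24 reads (interval 15.4 to 35.7), with the summit 1 bp away from that in LS174T. This was the deepest HepG2 site among the 5 genes and ranked 123rd of 1173 coding peaks.

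The WT-named list had 6.08 times the HepG2 reads at the start of FTH1 (interval 3.93 to 9.80). Over the 465 WT-named peaks in coding genes with a HepG2 partner the median ratio was 1.08 (quartiles 0.714 and 1.75), and 7 of them exceeded that of FTH1. The site took up 66.7% of the local reads in LS174T (interval 60.0 to 72.9%) and 47.1% in HepG2 (interval 32.9 to 61.5%). No HepG2 peak stood at the weaker site. At the LS174T ratio of this site to the start, 0.226 (interval 0.150 to 0.332), it would have held 5.42 reads there (3.60 to 7.96 over that interval). That range leaves out the counting error of the 24 HepG2 reads themselves. As 8 reads would have reached the lowest −log10 p of the HepG2 list, such a site could have been missed, and its absence is not read as a difference.

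Other annotated genes overlap FTH1. The lncRNA gene LOC399900 spans the summit at the start of FTH1 and lies on the plus strand, opposite to the peaks. BEST1, a chloride channel gene, spans the summit near the 3′ end. The peaks are called by strand, and both lay on the minus strand.

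**Figure D2:**
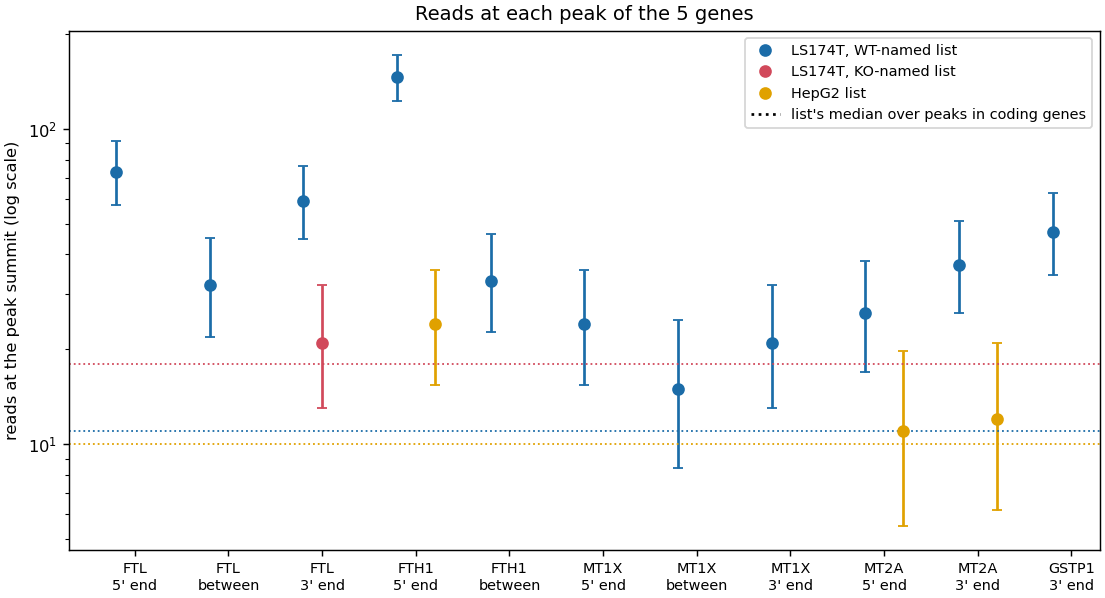
Reads at the summit of each of the 15 peaks (vertical axis, log scale) by gene and place in the gene, coloured by list, with exact Poisson 95% intervals that cover counting error only. Dotted lines give each list's median over peaks in coding genes (11, 18 and 10 reads for the WT-named, KO-named and HepG2 lists). The start of FTH1 in the WT-named list stands highest, at 146 reads, and the HepG2 points of MT2A lie near their list's median.

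MT2A, a metallothionein transcribed in many tissues, spans chr16:56608584-56609497 on the plus strand, and at 914 bp it is the shortest of the 5 genes. It was the one gene with the same pair of sites in LS174T and HepG2. In the WT-named list its start held 26 reads, 135 bp into the gene, and its end 37 reads, 54 bp before the gene end. In HepG2 the start held 11 reads and the end 12, at 139 and 29 bp. Summits in the lists differed by 4 bp at the start and 25 bp at the end, and each HepG2 peak lay wholly inside its LS174T partner.

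Reads at the start of MT2A were 2.36 times as many in the WT-named list as in HepG2 (interval 1.13 to 5.30), and at its end 3.08 times (interval 1.57 to 6.49). Both values lie above the upper quartile of 1.75 over shared coding peaks, and 63 and 43 of the 465 were higher. The balance within the gene was alike as far as the counts can tell, with a ratio of start to end of 0.703 in LS174T (interval 0.409 to 1.19) and 0.917 in HepG2 (interval 0.366 to 2.27). The summits held 84.0% of the 75 local reads in LS174T and 92.0% of the 25 in HepG2.

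**Figure D3:**
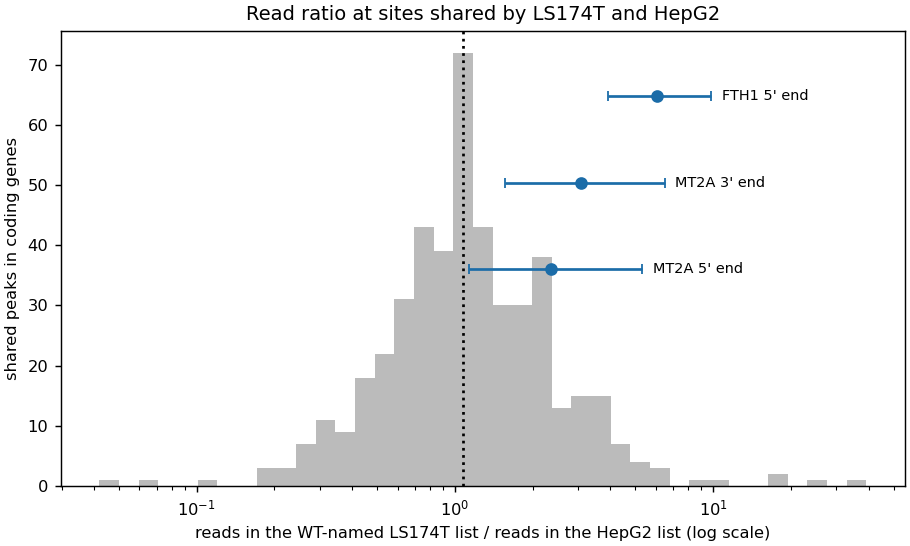
Number of shared peaks in coding genes (vertical axis, grey bars) by the ratio of reads in the WT-named LS174T list to reads in the HepG2 list (horizontal axis, log scale). Blue points mark the sites of FTH1 and MT2A with exact binomial 95% intervals, and their height has no meaning. The dotted line is the median of the 465 shared peaks, 1.08, and all 3 points lie to its right, at 2.36, 3.08 and 6.08.

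MT1X spans chr16:56682470-56684196 on the plus strand in the same metallothionein cluster. Its peaks held 24 reads at 159 bp from the start, 15 reads at 802 bp and 21 reads 35 bp before the end, and all were in the WT-named list. These 3 summits made up 93.8% of the 64 local reads, the highest such share among the 5 genes in that list. The middle peak was the weakest of the 11 WT-named peaks and ranked 564th of 1825. HepG2 had no peak in MT1X, although it had both sites of MT2A.

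Of 19 further annotated metallothionein genes and pseudogenes, MT1E, MT1G, MT1P3 and MT1XP1 had a peak in the WT-named list, and none had one in the other lists. Over all nuclear protein-coding and lncRNA genes, pseudogenes left out, the share was 4.24% in the WT-named list. It was 3.34% in HepG2 and 0.073% in the KO-named list, and none of 19 is near these 2 shares. MT1E held 23 reads at 127 bp from its start and 44 reads 48 bp before its end. MT1G held 18 reads at 163 bp from its start and 35 reads 69 bp before its end. Both genes thus had a site near each end, as MT2A did, with more reads at the end, at a ratio of start to end of 0.523 in MT1E (interval 0.301 to 0.885) and 0.514 in MT1G (interval 0.274 to 0.933). For MT1X the ratio was 1.14 (interval 0.610 to 2.16) and for FTL 1.24 (interval 0.866 to 1.77), intervals that include an even split. Of these genes FTH1 alone had an interval wholly above 1, at 4.42 (interval 3.02 to 6.67), and its last site stood farther from the gene end than those of the others.

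Metallothionein genes are near-identical in sequence, and ferritin genes have many processed copies, so which copy a read came from is uncertain. Of 20 annotated FTL pseudogenes, FTLP2 had a WT-named peak of 12 reads and FTLP3 one of 8 reads, each with all the reads of its window. MT1XP1 held 18 reads on chromosome 1 and MT1P3 held 10 on chromosome 20. Neither the 27 FTH1 pseudogenes nor the GSTP1 pseudogene had a peak in any list. The share over all pseudogenes was not computed, so these counts are descriptions. The deepest copy held fewer reads than the deepest site of the parent gene, 12 against 73 for FTL and 18 against 24 for MT1X. For MT1X the interval of the 24 reads, 15.4 to 35.7, includes 18, and its middle peak held 15 reads, fewer than the copy.

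GSTP1 spans chr11:67583812-67586653 on the plus strand. It had a single peak, in the WT-named list, with 47 reads (interval 34.5 to 62.5) and the summit 61 bp before the gene end, and it ranked 93rd of 1825. The site held 48.5% of the 97 local reads, and the remaining reads near GSTP1 formed no called peak in it. No site was called at its start, in contrast to the other 4 genes, and neither HepG2 nor the KO-named list had a peak in it.

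By place, 6 of the 15 peaks had their summit within 250 bp of the gene start and 6 within 250 bp of the gene end, with the middle peaks of FTL and MT1X and the weaker FTH1 peak between. In the WT-named list this was 8 of 11 peaks at an end, against 80 of 149 (53.7%) for coding genes no longer than FTH1 and 483 of 1557 (31.0%) for all coding genes with a known strand. In HepG2 it was 3 of 3 against 67 of 103 (65.0%) in short genes. Short genes have more of their span near an end, and the 250 bp were chosen after the positions were seen. Of the 6 peaks at a gene end, 5 ran past the annotated end, by up to 122 bp in FTL.

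In the WT-named list 318 of 1624 genes with a peak (19.6%) had 2 or more, as FTH1 and MT2A did, and 103 (6.34%) had 3 or more. Of 126 coding genes no longer than FTH1 with a peak, 37 had 2 or more and 10 had 3 or more, FTL and MT1X among the latter. ACTG1, CLDN4, DDIT4, PFN1, RPL8, RPLP2 and TMSB10 were also among the 10. In HepG2 112 of 1280 genes with a peak (8.75%) had 2 or more, and MT2A was one of them.

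The order of the genes differed between reads and the deposited fold enrichment. By reads the deepest WT-named sites ranked FTH1 (146), FTL (73), GSTP1 (47), MT2A (37) and MT1X (24). The intervals of neighbours in this order overlap for FTL and GSTP1, for GSTP1 and MT2A and for MT2A and MT1X, while FTH1 stands apart. By fold GSTP1, at 16.3, came ahead of FTL and MT2A, both at 15.2, with FTH1 at 27.3 and MT1X at 11.0. The fold is taken over all reads in the surrounding window, so a gene with several deep sites raises its own background. The middle FTL peak, with 32 reads, had a fold of 6.79, and the end of MT1G, with 35 reads, one of 15.5.

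**Figure D4:**
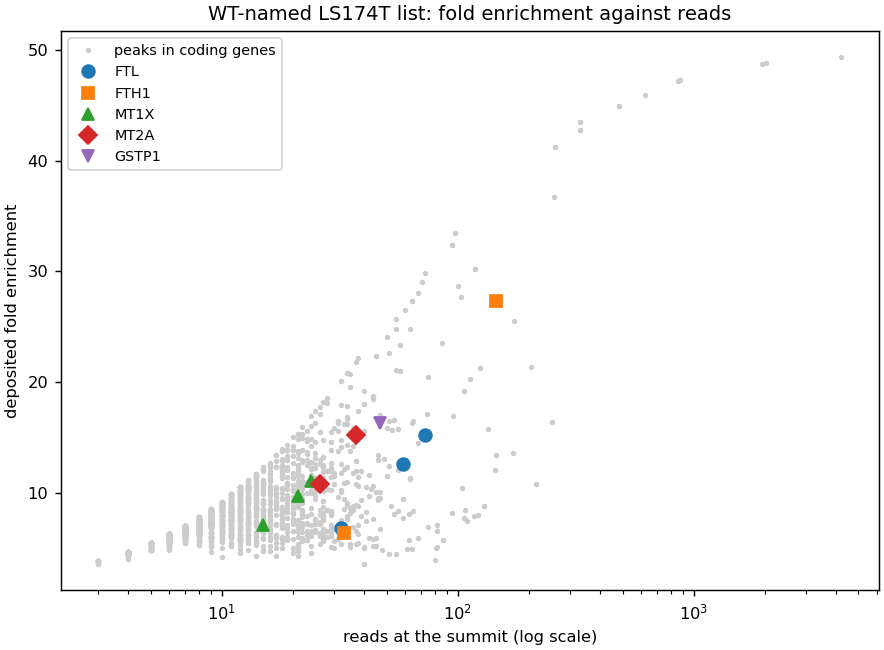
Deposited fold enrichment (vertical axis) against reads at the summit (horizontal axis, log scale) for the 1825 peaks in coding genes of the WT-named list (grey) and the 11 peaks of the 5 genes (coloured symbols). At like read numbers the fold varies widely, from 6.32 at 33 reads in FTH1 to 15.2 at 37 reads in MT2A.

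Of the 11 WT-named peaks, 3 (the start of FTH1 and both ends of MT2A) overlapped a HepG2 peak, and all 3 HepG2 peaks overlapped a WT-named peak. For all peaks in coding genes the shares were 25.5% (interval 23.5 to 27.5%) and 39.6% (interval 36.7 to 42.4%). Depth entered into this, since 57 of the 90 WT-named coding peaks with at least 50 reads (63.3%) had a HepG2 partner. Of the 3 sites of that depth here, the start of FTH1 had a partner and both ends of FTL had none. With the KO-named list 1 of the 11 WT-named peaks was shared, against 23 of 1825 coding peaks (1.26%) and 15 of the 90 with at least 50 reads (16.7%). The shared FTL site, with 59 reads, is 1 of the 3 sites of that depth here.

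Across the 3 lists, the genes nearest to each of the 5 in the reads of their deepest peak were found by Euclidean distance of log2(reads + 1). FTL was closest to TPT1, with 42 WT-named, 16 KO-named and no HepG2 reads (distance 0.867), and ADRA1B, at 3.16, was much farther. FTH1 was matched by the overlapping LOC399900 only because summits were assigned to genes without regard to strand. Its peak lies on the strand opposite to LOC399900. After it came ZNF316 and CUX1. Nearest to MT2A were EPCAM, ATP5F1B and MARCKSL1, with 33 to 38 reads in LS174T and 11 to 13 in HepG2. GSTP1 was nearest to LGALS3, ATP1B1 and LGALS4, and MT1X to CAPN1, CHCHD3 and CHRNB4 among 9 genes with an identical profile. With 3 values per gene the distance says little beyond presence in the same lists.

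Among other genes of iron handling, a peak was present in 4 of 36 in LS174T (WT-named) and in 3 of 36 in HepG2, where all nuclear coding genes stood at 7.23% and 5.45%. SLC11A2, an iron importer, held 22 and 11 reads, LS174T first, at sites that overlapped, and PCBP1, which delivers iron to ferritin and also binds RNA, held 16 in each. The mitochondrial iron carrier SLC25A28 and the biliverdin reductase BLVRB had 7 reads each in LS174T and no HepG2 peak. TFRC, the transferrin receptor, SLC40A1, the iron exporter, and the regulators ACO1 and IREB2 had none in any list. The shares, 11.1% and 8.33%, were close to those of all coding genes.

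Of 23 other genes of glutathione transferases and related proteins annotated on the chromosomes, MGST1, a membrane-bound enzyme, had 1 WT-named peak, of 15 reads. PTGES, GSTCD and CLIC1 were counted among the 23. None had a peak in HepG2 or the KO-named list. At 4.35% the WT-named share was near the 7.23% of all coding genes, and 0 of 23 in HepG2 is also near its 5.45%. Of 28 further metallothionein and zinc or copper handling genes, MT1E and MT1G were the 2 with a peak, and the transporters and the regulator MTF1 had none. Their share in the WT-named list, 7.14%, was near the 7.23% of all coding genes.

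Antioxidant genes and targets of NRF2, the regulator that responds to oxidants, carried a peak in 17 of 42 cases for the WT-named list and in 10 of 42 for HepG2, beside the same 7.23% and 5.45%. Of the 17, 6 rested on fewer than 10 reads at their deepest peak. The deepest in LS174T were SQSTM1, an autophagy receptor, at 38 reads, TKT, a pentose phosphate enzyme, at 21, the peroxiredoxin PRDX2 at 20, the thioredoxin reductase TXNRD1 at 18, PRDX5 at 16 and the glutathione peroxidase GPX2 at 14. In HepG2, PRDX2 held 20 reads, and PRDX1, PRDX5, TKT and UGDH held 12 each. Of the 10 HepG2 peaks 8 overlapped a WT-named peak, PRDX2, PRDX1 and TXNRD1 among them, beside 39.6% of all HepG2 peaks in coding genes. The exceptions were GSR, with no WT-named peak, and PRDX5, with its HepG2 peak 36 bp before the gene end and its LS174T peak 241 bp from the start. No gene of these 4 lists had a peak in the KO-named list, which is near the 0.11% of all nuclear coding genes there.

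**Figure D5:**
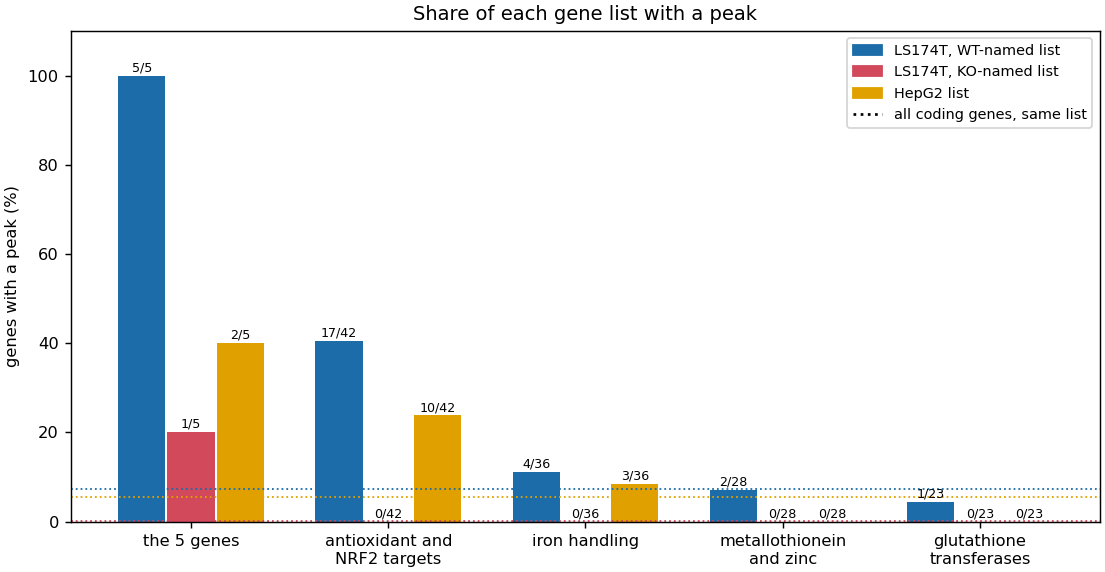
Share of genes with a peak (vertical axis, %) for the 5 genes and the 4 further gene lists, with a bar for each peak list and the counts above the bars. Dotted lines give the share of all nuclear coding genes in the same peak list (7.23%, 5.45% and 0.11% for the WT-named, HepG2 and KO-named lists). The antioxidant list stands at 17 of 42 and 10 of 42 in LS174T and HepG2, and the other 3 lists lie near the dotted lines.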

How the data were processed

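The authors deposited peak lists made, per the submitters' processing notes, with cutadapt, BWA and MACS2 on hg38; versions and settings are not given in the sources used here. Peaks were called separately by strand, per the deposited peak names, and whether the 2 HepG2 IP libraries were pooled is not stated. The values deposited with a peak, all the authors' own, are its fold (the ratio to local background), its p-value and q-value as −log10, and a score, which is 10 times −log10 q cut to a whole number. The liver list was not used here.

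Summit reads were computed by solving the deposited fold and p for the read number n. Given a background λ, MACS2 takes fold as (n + 1) / (λ + 1) and p as the Poisson chance of more than n reads. Whole n were tried with λ held to a multiple of 0.02, which whole reads in a 10000 bp window give at 200 bp extension. A unique n resulted for 2102 of 2103 WT-named, 46 of 46 KO-named and 1557 of 1557 HepG2 peaks. On peaks simulated with these same formulas and steps all 2102, 46 and 1557 were recovered. This checks the solving alone and cannot show that the deposited values follow the model.

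Gene spans came from RefSeq (GRCh38.p14), which gives no exons here. Gene strand came from the promoter table, and for FTH1, MT1E and MT1G from general knowledge. Sharing meant at least 1 bp of overlap on the same strand. Named genes were the 5 genes, up to 6 per further list by reads, copies with a peak, the 3 nearest profiles and genes overlapping a summit; listed and marker genes without a peak were named after the values were seen. A few genes that this rule names are not reported here. The members and lists were chosen with earlier results of these data known. No test was run, as no list has replicates. numpy 2.4.6, pandas 2.3.3, scipy 1.17.1 and matplotlib 3.10.9 were used.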

Additional observations from a re-analysis of the deposited data

How the results depend on the processing

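The counts of genes, peaks, shared sites and reads, 25 results in all, were recomputed under 91 alternatives: any overlap with the gene span in place of the summit, peaks on the gene's strand, −log10 q of at least 5, at least 10 reads, 50% mutual cover or either strand for sharing, and a background not held to steps of 0.02. Of these, 89 stayed within 1.5 times the value reported. Many could not have moved, since a filter cannot change a count that holds no peaks. All 15 peaks of the 5 genes also lay on the gene's strand, with at least 11 reads and −log10 q of at least 7.61. The 89 are therefore not read as robustness. At 10 reads the limit of 1.5 also passed 2 HepG2 iron handling genes instead of 3. It likewise passed 7 HepG2 antioxidant genes instead of 10. With at least 10 reads, the WT-named list had 2 iron handling genes with a peak instead of 4, and 11 antioxidant genes instead of 17. The sharing of peaks with at least 10 reads in both lists was added after seeing the data, as was the background of genes no longer than FTH1. No paired analysis was possible because no list carries values per library, and for the same reason no replicate could be left out. A site with no peak may still have had reads, since the lists hold called peaks only.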

Other observations

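The 8 gene starts whose first 50 bases held the loop letters with paired arms were ALAS2, CCDC116, CEP43, CTBP1, F10, FTL, LOC105376212 and PGLYRP2. FTL was the only one of these with a peak in any of the 3 human lists. With 4.24% of all genes holding a WT-named peak, none among 7 is near that share, and FTL was itself chosen for its peaks. Whether the RNAs of the other 7 were present in these cells is not recorded in the lists.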
